A study of Mus musculus with 6 samples.

Results

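ATP-binding cassette (ABC) export pumps move bile acids, phospholipid, conjugated metabolites and drugs out of the hepatocyte. The 10 pumps described here were picked by gene symbol from a table of 55536 genes. No rule on measured values was used, but earlier results of these data were known when the pumps were picked. They comprise 6 pumps of the canalicular membrane, which faces bile (Abcb11, Abcb4, Abcb1a, Abcb1b, Abcc2 and Abcg2), and 4 pumps of the basolateral membrane, which faces blood (Abcc1, Abcc3, Abcc4 and Abcc6). All 10 symbols were found, each as 1 gene.

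The series holds RNA sequencing of mouse liver from 3 samples labelled H-VMP1 KO and 3 labelled WT, and its title concerns VMP1, lipoprotein secretion and steatohepatitis. Every mouse was C57BL/6, 8 to 10 weeks old and floxed at VMP1. The H-VMP1 KO mice had received AAV8-TBG-cre by vein and the WT mice AAV8-TBG-null, each for 2 weeks, so the WT libraries also come from virus-treated floxed animals. TBG is a promoter active in hepatocytes, the cell type in which the labels place the deletion, whereas the RNA came from whole snap-frozen liver. Whether each sample is a different animal is not stated in the labels, so the p-values reflect spread among samples that may in part be technical.

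Each pump couples ATP hydrolysis to transport across 1 membrane domain. In the healthy liver the bile salt export pump Abcb11 and the conjugate pump Abcc2 carry most solute into bile, while Abcc3 and Abcc4 return bile acids and conjugates to blood and are known to be raised in cholestasis. The bile acid receptor FXR (Nr1h4) is known to drive Abcb11, and the oxidative stress factor NRF2 (Nfe2l2), with the xenobiotic receptors CAR (Nr1i3) and PXR (Nr1i2), is known to act on several of the ABCC genes.

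Promoter sequence is shown for Abcc4, which had the largest increase in log2(TPM + 1), for Abcb11, which with Abcc6 had the largest decreases, and for Abcb4, whose levels overlapped between groups. The order of Abcb11 and Abcc6 depends on the measure, since the log2 fold changes were -1.90 for Abcb11 and -1.85 for Abcc6 with a pseudocount of 1, and -1.92 and -1.93 with one of 0.1. Each line gives the 250 bases before the RefSeq start site on GRCm38.p6, 5′ to 3′ on the gene's own strand. Capitals mark a match to 1 of 2 motifs searched on both strands, the antioxidant response element core TGACNNNGC, to which NRF2 is known to bind, and an inverted repeat of AGGNCA spaced by 1 base, an arrangement to which FXR is known to bind.
Abcc4, chr14:118706220-118706469, minus strand: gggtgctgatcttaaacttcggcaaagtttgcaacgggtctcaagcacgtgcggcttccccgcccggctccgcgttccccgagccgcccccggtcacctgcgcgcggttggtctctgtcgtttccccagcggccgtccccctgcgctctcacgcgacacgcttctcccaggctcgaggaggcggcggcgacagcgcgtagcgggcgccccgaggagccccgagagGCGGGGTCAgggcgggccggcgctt
Abcb11, chr2:69342617-69342866, minus strand: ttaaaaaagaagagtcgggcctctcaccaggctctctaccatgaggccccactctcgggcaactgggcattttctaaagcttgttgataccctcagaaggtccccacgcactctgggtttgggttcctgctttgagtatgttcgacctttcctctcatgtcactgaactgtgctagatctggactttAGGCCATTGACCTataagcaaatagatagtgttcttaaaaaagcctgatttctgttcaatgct
Abcb4, chr5:8893471-8893720, plus strand: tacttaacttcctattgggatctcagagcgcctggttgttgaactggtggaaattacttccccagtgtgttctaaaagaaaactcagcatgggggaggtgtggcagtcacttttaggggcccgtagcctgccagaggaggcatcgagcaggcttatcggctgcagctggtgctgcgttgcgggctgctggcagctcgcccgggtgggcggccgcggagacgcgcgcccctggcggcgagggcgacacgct

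In these stretches Abcc4 had the antioxidant core on the opposite strand, read here as GCGGGGTCA, beginning 25 bases before the start. Abcb11 had the inverted repeat AGGCCATTGACCT, beginning 63 bases before the start, and Abcb4 had no match to these letters. GC content was 72.0% for the Abcc4 stretch, 46.4% for Abcb11 and 61.6% for Abcb4. The core is common and the inverted repeat is rare: in RefSeq windows of 300 bases, with 50 bases past the start included, 4071 of 32851 held the core (12.4%) and 29 held the inverted repeat (0.0883%). Windows were present for 7 of the 10 pumps, 10 windows in all. None was present for Abcc1, Abcc3 or Abcc6, so Abcc4 was the only basolateral pump searched. The core occurred in windows of 3 of these pumps (Abcb1a, Abcc2 and Abcc4) and the inverted repeat in 1 (Abcb11). These are counts of pumps, of which Abcc4 and Abcg2 had several windows, whereas the shares above are of windows. The Abcb1a window lies 92986 bases from the gene's GENCODE start. A match describes letters and not a bound site, and binding was not measured.

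Expression is given as TPM, a transcript level corrected for length and scaled to the same total in every library, so levels can be compared between genes. Fold changes are differences of mean log2(TPM + 1), H-VMP1 KO minus WT, tested with limma over the 12796 genes that had at least 1 TPM in at least 3 libraries. The groups differed widely beyond the pumps. Transcripts of the major urinary protein (Mup) genes held 0.341 to 0.545% of TPM in libraries labelled H-VMP1 KO, against 11.6 to 21.2% in WT libraries. With TPM as deposited, 74.5% of tested genes were called higher and 10.7% lower at an adjusted p under 0.05, 85.2% in all, and the median fold change was 0.77 (log2). Median-of-ratios scaling, which sets the typical gene equal between libraries, lowered fold changes by a median of 0.83 (log2) and called 35.1% higher and 36.6% lower. Pump results are therefore given with both scalings. Read totals are not kept in TPM, so depth is unknown and no counting interval is given.

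Vmp1 itself did not fall. It measured 157, 136 and 137 TPM in libraries labelled H-VMP1 KO, against 70.7, 96.5 and 88.6 TPM in WT libraries, a log2 fold change of 0.75 (limma adjusted p = 3.8e-04) that became -0.18 (adjusted p = 0.20) with median-of-ratios scaling. A whole-gene value can include transcript outside the deleted part, and the floxed part is not given in the sources used here. Every direction below rests on the labels, and H-VMP1 KO names the label throughout.

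Of the 10 pumps, 5 rose (Abcb1a, Abcb1b, Abcc1, Abcc3 and Abcc4), 3 fell (Abcb11, Abcc6 and Abcg2) and 2 (Abcb4 and Abcc2) did not pass the test. The share of pumps called higher was below the 74.5% of all tested genes, and the share called lower was above the 10.7%. With median-of-ratios scaling 4 pumps were called higher and 5 lower, because Abcb1b lost its call and Abcb4 and Abcc2 were called lower. The groups did not overlap for 9 of 10 pumps, 6 higher and 3 lower in H-VMP1 KO. Non-overlap was common in these data, with 86.8% of tested genes, 75.5% higher and 11.3% lower. All 10 pumps passed the filter on low values, but Abcb1a, Abcc1 and Abcc4 were below 1 TPM in every WT library and passed only through their level in H-VMP1 KO. With no filter on low values 4 pumps were called higher and 2 lower, since Abcb1b and Abcg2 no longer passed the test.

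**Figure D1:**
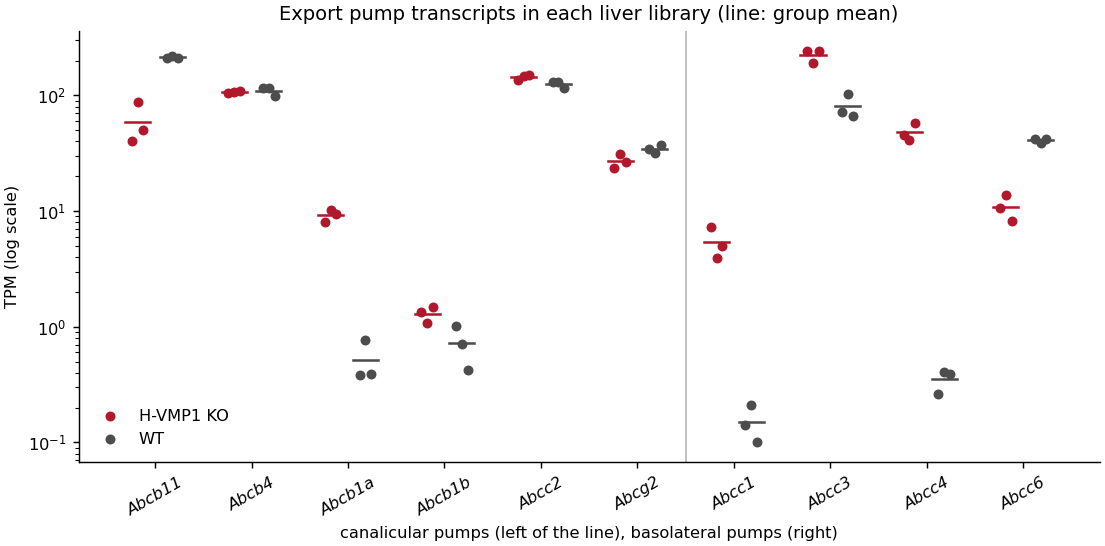
TPM of each pump in each library on a log axis, with 3 H-VMP1 KO points (red) left of 3 WT points (grey) and a line at each group mean; canalicular pumps stand left of the vertical line and basolateral pumps right of it. Abcc4 shows the widest gap, 41.1 to 57.2 TPM in H-VMP1 KO and 0.26 to 0.41 TPM in WT, and Abcb4 is the pump whose groups overlap.

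Among the canalicular pumps, Abcb11, the bile salt export pump that sets the pace of bile acid secretion, showed the largest fall. It lies on chromosome 2, 69238282 to 69342616, minus strand (ENSMUSG00000027048, GRCm38, as all positions here). Abcb11 measured 40.6, 87.3 and 50.2 TPM in libraries labelled H-VMP1 KO, against 208, 220 and 212 TPM in WT libraries. Every H-VMP1 KO library was below every WT library, and H-VMP1 KO library 2 stood above the other two of its group. The means were 59.4 ± 24.7 TPM in H-VMP1 KO and 213 ± 5.80 TPM in WT (SD, n = 3 each), 3.59-fold higher in WT, with a log2 fold change of -1.90 ± 0.26 (SE, limma adjusted p = 3.5e-04). With median-of-ratios scaling the log2 fold change was -2.83 (limma adjusted p = 1.5e-04). In whole liver, fewer cells of a type and less RNA per cell cannot be told apart.

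Abcb4 (ENSMUSG00000042476, chromosome 5, 8893717 to 8959231, plus strand) encodes MDR2, the floppase that delivers phosphatidylcholine to bile. Its level was close in the groups, with 105, 107 and 108 TPM in libraries labelled H-VMP1 KO and 116, 115 and 98.2 TPM in WT libraries. The groups overlapped, WT library 3 being the lowest of the 6 libraries. The log2 fold change was -0.04 ± 0.10 (SE, limma adjusted p = 0.75), with a 95% interval of -0.26 to 0.19. Relative to the typical gene Abcb4 fell, with a log2 fold change of -0.97 after median-of-ratios scaling (limma adjusted p = 2.7e-05).

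Abcc2 (ENSMUSG00000025194, chromosome 19, 43782192 to 43840740, plus strand) encodes MRP2, which exports bilirubin and glutathione conjugates. It measured 135, 147 and 151 TPM in libraries labelled H-VMP1 KO, against 130.36, 130.02 and 116 TPM in WT libraries. The libraries labelled H-VMP1 KO were all slightly higher, without overlap, yet the log2 fold change of 0.20 ± 0.10 (SE) did not pass the test (limma adjusted p = 0.081, 95% interval -0.02 to 0.43). Median-of-ratios scaling turned it to -0.73 (limma adjusted p = 2.0e-04), so the direction of Abcc2 depends on the scaling.

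Abcg2 (ENSMUSG00000029802, chromosome 6, 58584523 to 58695676, plus strand) encodes BCRP, a pump for sulfated conjugates, urate and drugs. Its values were 23.8, 31.3 and 26.5 TPM in libraries labelled H-VMP1 KO, against 34.5, 31.8 and 37.4 TPM in WT libraries. The groups were separate by a narrow margin, between H-VMP1 KO library 2 and WT library 2. Abcg2 fell by 0.34 ± 0.12 on the log2 scale (SE, limma adjusted p = 0.023), and by 1.25 with median-of-ratios scaling (limma adjusted p = 1.8e-04). As deposited, its call was lost without H-VMP1 KO library 1 (limma adjusted p = 0.098), H-VMP1 KO library 3 (adjusted p = 0.063) or WT library 3 (adjusted p = 0.084).

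Abcb1a and Abcb1b are the mouse paralogs of the multidrug pump P-glycoprotein and neighbour each other and Abcb4 on chromosome 5. Abcb1a (ENSMUSG00000040584, 8660077 to 8748575, plus strand) measured 8.02, 10.2 and 9.35 TPM in libraries labelled H-VMP1 KO, against 0.38, 0.77 and 0.39 TPM in WT libraries. All 3 H-VMP1 KO libraries were high and close to each other, and all WT libraries were below 1 TPM. The means of 9.19 ± 1.09 TPM in H-VMP1 KO and 0.513 ± 0.222 TPM in WT (SD, n = 3 each) differed 17.9-fold, with a log2 fold change of 2.76 ± 0.14 (SE, limma adjusted p = 1.3e-07) and 2.17 with median-of-ratios scaling.

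Abcb1b (ENSMUSG00000028970, 8798147 to 8866315, plus strand) stayed low in both groups, at 1.33, 1.07 and 1.47 TPM in libraries labelled H-VMP1 KO and 1.02, 0.71 and 0.42 TPM in WT libraries. The groups nearly touched, at H-VMP1 KO library 2 and WT library 1. Abcb1b rose by 0.43 ± 0.14 on the log2 scale with TPM as deposited (SE, limma adjusted p = 0.017), but by median-of-ratios scaling its log2 fold change was -0.03 (limma adjusted p = 0.88). Quantile normalization called it lower (log2 fold change -0.42, limma adjusted p = 0.033). The call was lost without WT library 3 (log2 fold change 0.30, limma adjusted p = 0.075), on rescaling without the Mup genes (adjusted p = 0.083) and on rescaling without mitochondrial and the most abundant genes (adjusted p = 0.064). With a pseudocount of 0.1 the log2 fold change was 0.83 (limma adjusted p = 0.022). The longest coding transcripts of Abcb1a and Abcb1b are 86.8% identical over their aligned length, and 17.0% of 50-base words of Abcb1a and 18.3% of those of Abcb1b also occur in transcripts of other genes. How reads were shared between these paralogs is therefore uncertain. For Abcb4 that share was 3.42%, and it was at most 0.163% for the other 7 pumps.

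Among the basolateral pumps, Abcc4, Abcc3 and Abcc1 rose and Abcc6 fell, with the same calls under both scalings. Abcc4 (ENSMUSG00000032849, chromosome 14, 118482692 to 118706219, minus strand) encodes MRP4, which returns bile acids to blood together with glutathione and also exports cyclic nucleotides. It measured 45.7, 41.1 and 57.2 TPM in libraries labelled H-VMP1 KO, against 0.26, 0.41 and 0.39 TPM in WT libraries. Every H-VMP1 KO library was more than 40 TPM above every WT library, and the WT level was near the bottom of the scale. The means were 48.0 ± 8.31 TPM in H-VMP1 KO and 0.353 ± 0.0814 TPM in WT (SD, n = 3 each), a 136-fold ratio, with a log2 fold change of 5.17 ± 0.13 (SE, limma adjusted p = 7.0e-09) and 4.57 with median-of-ratios scaling (limma adjusted p = 3.3e-07). With a pseudocount of 0.1 in place of 1, the log2 fold changes of the pumps that were below 1 TPM in WT were larger, 6.73 for Abcc4, 4.44 for Abcc1 and 3.97 for Abcb1a, so these values depend on the pseudocount. The ratio of means rests on WT values whose read support is unknown.

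Abcc3 (ENSMUSG00000020865, chromosome 11, 94343295 to 94392997, minus strand) encodes MRP3, the exporter of bilirubin and drug glucuronides to blood. It measured 241, 190.1 and 243 TPM in libraries labelled H-VMP1 KO, against 72.5, 104 and 66.6 TPM in WT libraries. The groups were well apart, with H-VMP1 KO library 2 the lowest and WT library 2 the highest of their groups. The means of 224.6 ± 29.9 TPM in H-VMP1 KO and 80.9 ± 19.9 TPM in WT (SD, n = 3 each) differed 2.78-fold, with a log2 fold change of 1.48 ± 0.18 (SE, limma adjusted p = 4.8e-05). With median-of-ratios scaling the increase was 0.54 (limma adjusted p = 0.0094).

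Abcc1 (ENSMUSG00000023088, chromosome 16, 14361558 to 14475737, plus strand) encodes MRP1, a widely expressed exporter of glutathione conjugates and leukotriene C4 that is sparse in resting hepatocytes. It measured 7.32, 3.91 and 4.97 TPM in libraries labelled H-VMP1 KO, against 0.14, 0.21 and 0.10 TPM in WT libraries. H-VMP1 KO library 1 was the highest, and all WT libraries lay far below the H-VMP1 KO range. The log2 fold change was 2.44 ± 0.18 (SE, limma adjusted p = 1.8e-06) and 1.99 with median-of-ratios scaling (limma adjusted p = 2.1e-05). The means were 5.40 ± 1.75 TPM in H-VMP1 KO and 0.150 ± 0.0557 TPM in WT (SD, n = 3 each), a ratio of 36.0.

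Abcc6 (ENSMUSG00000030834, chromosome 7, 45967555 to 46030302, minus strand) encodes MRP6, through which hepatocytes release ATP that gives rise to circulating pyrophosphate, an inhibitor of soft tissue calcification. It measured 10.6, 13.9 and 8.23 TPM in libraries labelled H-VMP1 KO, against 41.7, 39.1 and 42.0 TPM in WT libraries. All H-VMP1 KO libraries were low and all WT libraries were close to each other. The means of 10.9 ± 2.83 TPM in H-VMP1 KO and 41.0 ± 1.58 TPM in WT (SD, n = 3 each) were 3.76-fold apart, with a log2 fold change of -1.85 ± 0.16 (SE, limma adjusted p = 4.7e-06) and -2.73 with median-of-ratios scaling (limma adjusted p = 1.2e-05).

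**Figure D2:**
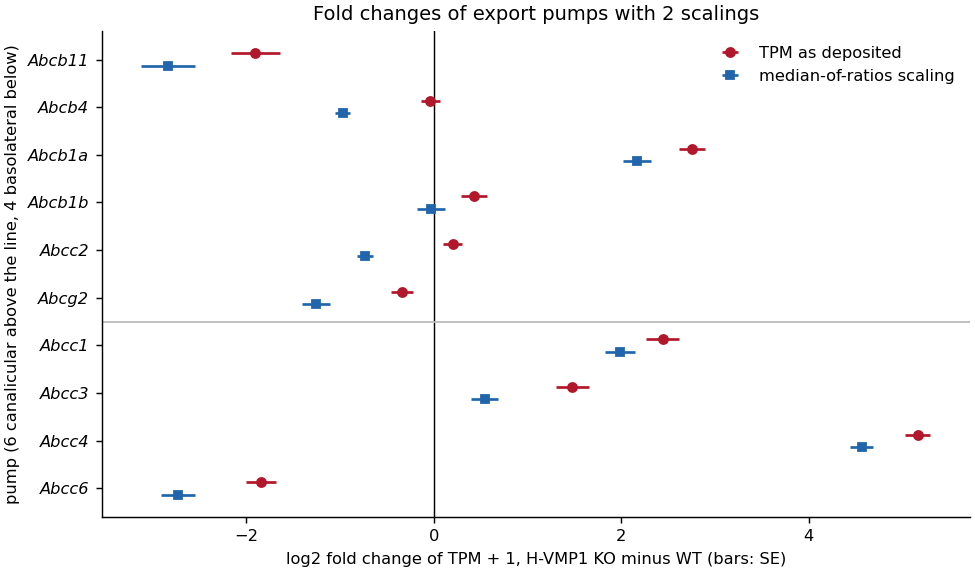
Log2 fold change of TPM + 1 for each pump, H-VMP1 KO minus WT, with TPM as deposited (red circles) and after median-of-ratios scaling (blue squares); bars are SE. Abcb11, Abcc6 and Abcg2 lie below 0 and Abcb1a, Abcc1, Abcc3 and Abcc4 above 0 with both, while Abcb1b (0.43 and -0.03) and Abcc2 (0.20 and -0.73) change sides.

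The libraries labelled H-VMP1 KO were not alike in size of change. Of the 8 pumps called, 7 had H-VMP1 KO library 2 as the library nearest to the WT mean, all but Abcb1a. All 8 were still called when that library was left out. How often that library was nearest over all tested genes was not counted, so the 7 cannot be read as particular to the pumps. The same library had the highest Alb (albumin) level of its group, 13504 TPM against 10799 and 10513 TPM in libraries labelled H-VMP1 KO 1 and 3. The hepatocyte markers Ttr, Ass1, Cps1, Pck1, Tat, Serpina1a, Asgr1 and Fah were also highest in that library. Arg1 and Hnf4a were not, and Apoa1 was lowest there, at 4972 TPM against 5557 and 5811 TPM. The part of these library differences in the pump values was not tested.

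The ranking of the pumps differed between groups. In H-VMP1 KO the order by mean TPM was Abcc3, Abcc2, Abcb4, Abcb11, Abcc4, Abcg2, Abcc6, Abcb1a, Abcc1 and Abcb1b, where the library ranges of Abcb11 and Abcc4, and of Abcc6 and Abcb1a, overlapped. In WT it was Abcb11, Abcc2, Abcb4, Abcc3, Abcc6, Abcg2, Abcb1b, Abcb1a, Abcc4 and Abcc1, where the ranges of Abcb4 and Abcc3 overlapped, as did those of Abcb1b and Abcb1a and of Abcb1a and Abcc4. Abcc4 thus stood level with Abcb11 in H-VMP1 KO, whereas in WT it was next to last and Abcb11 was at the top.

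By membrane, 2 of 6 canalicular pumps rose, 2 fell and 2 were not called, with a median log2 fold change of 0.08. Of 4 basolateral pumps, 3 rose and 1 fell, with a median of 1.96, against 0.77 over all tested genes. Of the 3 that rose, Abcc1 and Abcc4 were below 1 TPM in every WT library and passed the filter only through H-VMP1 KO. The same held for Abcb1a among the canalicular pumps. Over all tested genes 74.5% were called higher and 10.7% lower. With median-of-ratios scaling 1 canalicular pump was higher, 4 were lower and 1 was not called (median -0.85). The basolateral counts were as before (median 1.27, against -0.01 over all tested genes). With that scaling 35.1% of all tested genes were called higher and 36.6% lower. With 6 and 4 genes these are descriptions of the sets.

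Summed over the 6 canalicular pumps, the level was 313, 384 and 347 TPM in libraries labelled H-VMP1 KO, against 491, 498 and 464 TPM in WT libraries. Summed over the 4 basolateral pumps, it was 304, 249 and 313 TPM in libraries labelled H-VMP1 KO, against 115, 143 and 109 TPM in WT libraries. With TPM as deposited, the canalicular sum was lower and the basolateral sum higher in every H-VMP1 KO library than in any WT library, while the sum of all 10 pumps overlapped, at 637 ± 21.6 TPM in H-VMP1 KO and 607 ± 34.0 TPM in WT (SD, n = 3 each). The basolateral share of the 10-pump sum, which does not depend on library scaling, was 49.3, 39.3 and 47.4% in libraries labelled H-VMP1 KO, against 18.9, 22.4 and 19.0% in WT libraries. The mean shares of 45.3 ± 5.30% in H-VMP1 KO and 20.1 ± 1.96% in WT (SD, n = 3 each) differed by 25.2 percentage points. Without Abcb11 and Abcc3, the shares were 18.2 ± 1.45% in H-VMP1 KO and 13.3 ± 0.989% in WT (SD, n = 3 each). They were 4.89 points apart. These 2 pumps had the highest mean of their membrane over all 6 libraries. Abcb11 also fell most among the canalicular pumps, and in H-VMP1 KO its mean of 59.4 TPM was below the 144.6 TPM of Abcc2. Leaving out Abcc2 in place of Abcb11 was not tried, so how far the 4.89 points depend on that choice is unknown.

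**Figure D3:**
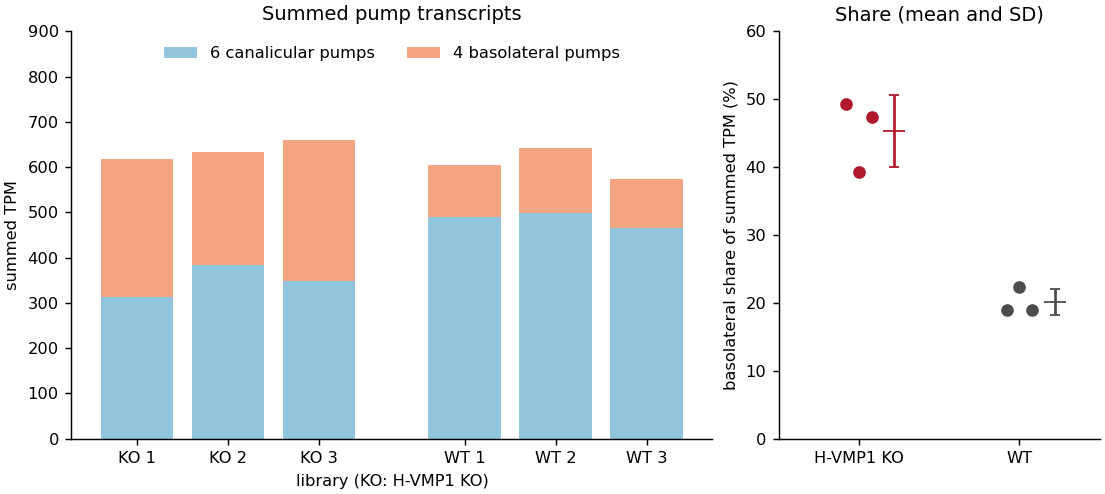
Left, summed TPM of the 6 canalicular (blue) and 4 basolateral (orange) pumps in each library, H-VMP1 KO libraries before WT libraries; right, the basolateral share of the sum in percent, points for libraries and bars for mean and SD. The total heights overlap between groups with TPM as deposited, and the 3 H-VMP1 KO shares (39.3 to 49.3%) lie above the 3 WT shares (18.9 to 22.4%).

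Ratios between pumps inside a library are also free of scaling, and 3 pairs were compared. Abcc4 to Abcb11, the bile acid pumps of the opposite membranes, stood at 1.13, 0.470 and 1.14 in libraries labelled H-VMP1 KO, against 0.00125, 0.00187 and 0.00184 in WT libraries, a difference of 9.02 on the log2 scale. These WT ratios rest on Abcc4 values below 1 TPM whose read support is unknown. With 0.1 added to each TPM the difference was 8.65. Abcc3 to Abcc2, the conjugate pumps, stood at 1.78, 1.29 and 1.60 in libraries labelled H-VMP1 KO, against 0.556, 0.798 and 0.574 in WT libraries, a difference of 1.29. Abcc3 transcripts thus outnumbered those of Abcc2 in every H-VMP1 KO library and in no WT library. Abcb1b to Abcb1a stood at 0.166, 0.105 and 0.157 in libraries labelled H-VMP1 KO, against 2.68, 0.922 and 1.08 in WT libraries, a difference of -3.31 that shares the paralog uncertainty above. Abcb1a was below 1 TPM in every WT library, and with 0.1 added to each TPM this difference was -3.15. Each pair separated the groups without overlap, and a two-sided exact permutation test gave p = 0.1 for each (0.1 after Benjamini-Hochberg adjustment over the 3 pairs), the smallest that 3 against 3 libraries allow, so no pair could pass 0.05.

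Other genes of bile transport were read from lists beside the pumps. Of 6 other canalicular transport genes, 1 rose and 3 fell as deposited, and 0 rose and 5 fell with median-of-ratios scaling. Of all tested genes 74.5% rose and 10.7% fell as deposited, and 35.1% rose and 36.6% fell with median-of-ratios scaling. The sterol transporters Abcg5 and Abcg8, which together move cholesterol into bile, fell by 0.46 and 0.42 on the log2 scale (limma adjusted p = 0.042 and 0.023). At the basolateral membrane Slc51b, a subunit of the bile acid exporter OST, measured 2.76, 6.10 and 6.46 TPM in libraries labelled H-VMP1 KO, against 0.41, 0.37 and 0.28 TPM in WT libraries, a log2 fold change of 2.11 (limma adjusted p = 1.1e-04) without overlap. Slc51b was below 1 TPM in every WT library and was tested only because of its level in H-VMP1 KO. Its partner subunit Slc51a was listed at 0 in all 6 libraries.

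Uptake carriers and bile acid synthesis were lower. Of 7 uptake carriers 6 fell and 1 was not called under either scaling, with a median log2 fold change of -3.34, where 10.7% (as deposited) and 36.6% (median-of-ratios) of all tested genes were lower. Slc10a1, the sodium-dependent bile acid carrier NTCP, measured 16.0, 28.8 and 11.9 TPM in libraries labelled H-VMP1 KO, against 347, 409 and 296 TPM in WT libraries, and its log2 fold change was -4.22. The organic anion carriers Slco1a1 and Slco1b2 changed by -6.33 and -3.34 (log2). All 7 bile acid synthesis genes fell (median -2.06), among them Cyp7a1, the rate-limiting enzyme, with a log2 fold change of -3.49 (limma adjusted p = 3.2e-04). All 7 were also called lower with median-of-ratios scaling, against the same shares over all tested genes.

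Among 12 regulators of pump genes, 3 rose and 4 fell as deposited, and 1 rose and 9 fell with median-of-ratios scaling. The shares over all tested genes were 74.5% higher and 10.7% lower as deposited, and 35.1% and 36.6% with median-of-ratios scaling. Nr1h4 (FXR) measured 28.0, 29.2 and 22.7 TPM in libraries labelled H-VMP1 KO, against 76.0, 87.3 and 72.9 TPM in WT libraries, with a log2 fold change of -1.53 (limma adjusted p = 2.1e-06). The FXR target Nr0b2 had a log2 fold change of -0.90 that did not pass the test (limma adjusted p = 0.085), and -1.79 with median-of-ratios scaling, which passed (limma adjusted p = 0.0053). Nr1i3 (CAR) changed by -3.21 (limma adjusted p = 5.8e-06), and Nr1i2 (PXR) by 0.23 without passing the test (limma adjusted p = 0.11), turning to -0.69 with median-of-ratios scaling. Nfe2l2 (NRF2) rose with both scalings, at 101.2, 100.8 and 108 TPM in libraries labelled H-VMP1 KO, against 32.2, 25.2 and 23.6 TPM in WT libraries, a log2 fold change of 1.91 (limma adjusted p = 6.3e-07).

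Of 12 NRF2 target genes, 12 rose under each scaling, with a median log2 fold change of 3.36, against 74.5% (as deposited) and 35.1% (median-of-ratios) of all tested genes. Of the 12, Cbr3 and Slc7a11 were below 1 TPM in every WT library and passed the filter only through H-VMP1 KO. Nqo1, a quinone reductase, rose by 4.57 (log2, limma adjusted p = 3.5e-08) and Gclm, a subunit of the glutathione synthesis enzyme, by 1.58 (limma adjusted p = 2.0e-06). Targets of CAR and PXR did not move one way: of 7 tested, 3 rose, 1 fell and 3 were not called. With median-of-ratios scaling 1 rose and 3 fell. The shares of all tested genes called lower were 10.7% (as deposited) and 36.6% (median-of-ratios). Cyp2b10, the usual CAR marker, varied widely at 8.97, 62.3 and 21.8 TPM in libraries labelled H-VMP1 KO, against 1.34, 4.5 and 2.20 TPM in WT libraries (log2 fold change 2.82, limma adjusted p = 0.022). Cyp3a11, the usual PXR marker, fell, with a log2 fold change of -1.80 (limma adjusted p = 0.0049).

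Genes that anchor or traffic canalicular pumps rose in 9 of 12 cases and fell in 2 as deposited, and split into 4 and 4 with median-of-ratios scaling. The shares higher as deposited, and higher and lower with median-of-ratios scaling, were close to those over all tested genes (74.5%, 35.1% and 36.6%). Among the 9, Stx3 was below 1 TPM in every WT library and passed the filter only through H-VMP1 KO. The membrane linker Ezr (ezrin) rose by 1.82 (log2, limma adjusted p = 1.7e-06) and by 1.09 with median-of-ratios scaling. Rdx (radixin), the linker known to hold Abcc2 at the canaliculus in mice, had a log2 fold change of 0.19 (limma adjusted p = 0.083) that turned to -0.73 with median-of-ratios scaling.

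**Figure D4:**
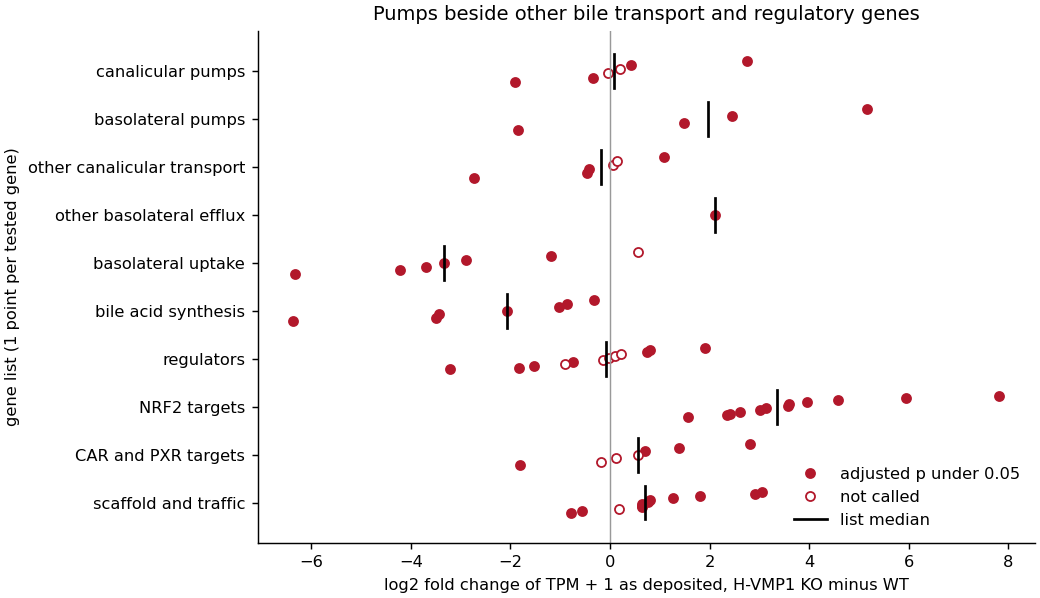
Log2 fold change of TPM + 1 as deposited, H-VMP1 KO minus WT, for each tested gene of the pumps and of 8 lists of bile transport and regulation; filled points passed an adjusted p under 0.05, open points did not, and bars mark list medians. Uptake (median -3.34) and bile acid synthesis (-2.06) lie to the left and NRF2 targets (3.36) to the right. The canalicular pumps have a median of 0.08 but spread from -1.90 (Abcb11) to 2.76 (Abcb1a). With median-of-ratios scaling the values near 0 turn negative.

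Markers of cell types also differed between the groups. Of 12 hepatocyte markers, of which Hnf4a is also among the regulators above, 0 rose and 8 fell, and their summed level was 24977 to 28527 TPM in libraries labelled H-VMP1 KO, against 49773 to 68876 TPM in WT libraries. Among pumps known from hepatocytes, Abcb11, Abcc6 and Abcg2 fell and Abcc3 rose with both scalings. Abcb4 and Abcc2 were not called as deposited and were called lower with median-of-ratios scaling. Many markers of other cells rose, and their counts stand against 74.5% (as deposited) and 35.1% (median-of-ratios) of all tested genes called higher. Of 10 cholangiocyte markers 7 were tested and 6 rose, of which 5 were below 1 TPM in every WT library and passed the filter only through H-VMP1 KO. The cholangiocyte sum was 141 to 194 TPM in H-VMP1 KO and 26.1 to 38.7 TPM in WT, and without Spp1 (osteopontin) it was 25.0 to 39.8 TPM in H-VMP1 KO and 8.89 to 11.8 TPM in WT. Of 10 macrophage markers 9 rose, 2 of them (Ccr2 and Itgam) below 1 TPM in every WT library, with a sum of 515 to 823 TPM in H-VMP1 KO and 62.0 to 103 TPM in WT. All 10 endothelial markers rose (134 to 176 TPM in H-VMP1 KO and 49.4 to 56.1 TPM in WT), as did all 10 stellate cell markers, of which Acta2 was below 1 TPM in every WT library (287 to 331 TPM in H-VMP1 KO and 51.4 to 54.3 TPM in WT). Of 10 lymphocyte and 10 neutrophil markers 4 each were tested and rose, 3 of each being below 1 TPM in every WT library and tested only because of their level in H-VMP1 KO, with sums of 17.4 to 23.8 and 28.8 to 60.9 TPM in H-VMP1 KO and of 2.53 to 2.90 and 2.38 to 3.84 TPM in WT. In no list was a marker at 0 in all libraries. With median-of-ratios scaling 12 hepatocyte markers fell, and 6 cholangiocyte, 9 macrophage, 7 endothelial, 10 stellate, 4 lymphocyte and 4 neutrophil markers rose. Abcc1, Abcc4 and Abcb1a are known to be expressed by such cells too, and the part of these cells in the pump values was not tested.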

How the data were processed

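Per the labels' protocols, 6 snap-frozen mouse liver samples, 3 a group by their labels, gave Trizol-extracted total RNA for Illumina libraries. The authors deposited 1 table of TPM per gene. STAR 2.6.1c, the quantifier RSEM, edgeR and the build mm10 are named without roles in the submitters' processing notes. RSEM shares ambiguous reads between similar genes, and TPM keeps no read total, so depth is unknown. The strand setting is not given in the sources used here. Genes on the opposite strand of pump exons were at 0.03 TPM or less in every library.

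GENCODE M21 on GRCm38 (mm10) held 55450 of the 55536 gene identifiers. The fit used limma 3.58.1 under R 4.3.3 on log2(TPM + 1) of the 12796 genes that reached 1 TPM in 3 or more libraries. It had trend and robust variances and no block, with Benjamini-Hochberg adjustment over all of these genes at 0.05. The procedure was first tested on simulated data. In that simulation few genes changed, all upward, so it does not cover a difference as wide as the one in these libraries. Ratios of pump pairs were compared by exact permutation. Promoters came from RefSeq, and transcripts were aligned with Biopython 1.88.

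The 10 pumps and the gene lists were chosen with earlier results of these data known. The genes named are the pumps, Vmp1, a list of bile pathway genes, and the 3 largest called changes in each direction among other ABC genes. Other list or family genes are named only where they limit a count, a sum or a comparison. Alb was named after its values were seen, as were the hepatocyte markers set beside it. Alternatives changed the pseudocount, filter, scaling, variance model and replicate block, and left out each library.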

Additional observations from a re-analysis of the deposited data

How the results depend on the processing

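Abcb11, Abcb1a, Abcc1, Abcc3, Abcc4 and Abcc6 kept their direction and their call under all 15 alternatives run, leaving out each library included, although a pseudocount of 0.1 gave larger log2 fold changes for Abcb1a (3.97), Abcc1 (4.44) and Abcc4 (6.73). Scaling moved the other values. Over all genes, 4496 were higher and 4689 lower with median-of-ratios scaling and 4520 and 4534 with quantile normalization, against 9537 and 1369 as deposited, and 5 and 6 pumps were called lower, against 3. Abcb4 had log2 fold changes of -0.97 (median-of-ratios), -0.57 (quantile) and -0.30 (rescaled without Mup genes), all called, and 0.0065 and 0.00019 without WT library 1 or 2, uncalled. Abcb1b had -0.027 (median-of-ratios), -0.42 (quantile, limma adjusted p = 0.033), and, no longer called, 0.32 (without Mup genes), 0.40 (without mitochondrial and the 20 most abundant genes) and 0.43 with no filter (limma adjusted p = 0.051). Abcc2 had -0.73, -0.26 and -0.057 with median-of-ratios scaling, quantile normalization and Mup removal. Abcg2 had -0.34 with no filter (limma adjusted p = 0.059). Apart from the scalings' construction, the cause was not tested. Leaving out each library in turn gave -0.11 to 0.01 for Abcb4, 0.30 to 0.55 for Abcb1b, 0.15 to 0.25 for Abcc2, -0.44 to -0.25 for Abcg2, 4 to 5 pumps higher, 2 to 3 lower, and 23.2 to 28.2 points for the basolateral share, which was 4.89 points without Abcb11 and Abcc3.

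No pairing by replicate number was seen: deviations of same-numbered libraries correlated at 0.076, 0.040 and -0.115. Those of differently numbered libraries correlated at -0.143 to 0.098. With 3 libraries a group these values cannot exclude a pairing. With the number as a replicate block, 9427 genes were higher and 1333 lower, 5 pumps higher and 3 lower, and no pump changed its call. TPM gives no depth, which limits values under 1 TPM, and the 3 libraries a group limit small changes.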

Other observations

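Other members of the ABC family were measured in the same libraries. Of 40 such genes 28 were tested, of which 14 rose, 8 fell and 6 were not called, with a median log2 fold change of 0.17. Over all tested genes 74.5% rose and 10.7% fell, with a median of 0.77. Among the 14, Abca5, Abcc12, Abcg1 and Abcg3 were below 1 TPM in every WT library and passed the filter only through H-VMP1 KO. With median-of-ratios scaling 8 of the family rose and 16 fell, against 35.1% and 36.6% of all tested genes. Their summed level was 474 to 496 TPM in libraries labelled H-VMP1 KO and 480.1 to 524 TPM in WT libraries, and 4 of them were listed at 0 in every library.

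The largest increase was in Abcc5, which encodes MRP5, an exporter of cyclic nucleotides and nucleotide analogues and a relative of Abcc4. Abcc5 measured 23.3, 22.2 and 19.2 TPM in libraries labelled H-VMP1 KO, against 0.93, 1.32 and 1.04 TPM in WT libraries, with a log2 fold change of 3.43 (limma adjusted p = 2.6e-08) and 2.72 with median-of-ratios scaling. All H-VMP1 KO libraries were far above all WT libraries. Abcg1, a sterol exporter abundant in macrophages, rose by 2.04 (log2, limma adjusted p = 4.1e-07), beside macrophage markers summing to 515 to 823 TPM in H-VMP1 KO and 62.0 to 103 TPM in WT, whose part in it was not tested. Abcg3, a rodent relative of Abcg2, rose by 1.94 (limma adjusted p = 5.7e-07). Abcg1 and Abcg3 were below 1 TPM in every WT library and passed the filter on low values only through H-VMP1 KO.

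The largest decrease was in Abca8a, at 2.70, 5.90 and 3.14 TPM in libraries labelled H-VMP1 KO, against 22.2, 23.8 and 24.4 TPM in WT libraries (log2 fold change -2.37, limma adjusted p = 1.7e-05). H-VMP1 KO library 2 was again the nearest of its group to WT. Abcd3, which imports fatty acids and bile acid precursors into peroxisomes, had a log2 fold change of -1.29 (limma adjusted p = 2.2e-06), and Abca6 one of -1.15 (limma adjusted p = 1.9e-05). These 6 genes kept their direction with median-of-ratios scaling.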
